A study of Homo sapiens with 6 samples.

Results

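The 10 genes described here, 5 of nucleotide excision repair (XPC, DDB2, DDB1, XPA and ERCC5) and 5 of translesion DNA polymerases or their subunits (POLH, POLK, POLI, REV1 and REV3L), were taken by symbol from the 21447 genes found in the transcript files, and the estimated counts of their transcripts were summed. All 10 were found, and all 10 were among the 14323 genes that passed the filter on low counts. RNA came from unsynchronized U-2 OS cells, a human osteosarcoma line, that were left untreated or harvested 24 h after receiving 4 Gy of ionizing radiation (IR), with 3 libraries in each group. No other agent or allele is named in the labels, and the same line was used throughout. The labels number the libraries, and the paper describes them as independent samples without saying whether these were separate cultures, so that the p-values below measure the spread between these samples.

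Nucleotide excision repair removes bulky adducts and ultraviolet photoproducts. XPC, helped by the UV-DDB pair of DDB1 and DDB2, finds the distorted helix anywhere in the genome, TFIIH opens it, XPA and RPA check and hold it, and the nucleases ERCC5 (XPG) and ERCC1–ERCC4 cut out the damaged stretch. Translesion polymerases instead copy past a damaged base. POLH, POLK and POLI insert bases opposite lesions, REV1 inserts cytosine and serves as a scaffold for the others, and REV3L is the catalytic subunit of polymerase zeta, which extends from the inserted base. DDB2, XPC and POLH are known targets of the transcription factor p53, and the damage that ionizing radiation makes (breaks and oxidized bases) is mostly the work of other repair pathways.

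The libraries held 18573309 to 45308792 estimated counts, with the highest total in IR replicate 3 and at most 22953834 in the other 5. CDKN1A, the p21 gene and a standard p53 target, was checked first as a sign of the treatment and was higher in IR by 1.53 ± 0.08 on the log2 scale (SE, n = 3 per group, adjusted p = 2.82e-05, edgeR quasi-likelihood test). The 6 mesenchymal markers expected of this line summed to between 3739 and 4072 TPM (a share of the library's transcripts, scaled for length) in untreated and between 3715 and 4390 TPM in IR libraries, mostly from SPARC and VIM, while COL1A2 was below 1 TPM in all 6. The 3 epithelial markers summed to 15.1 to 16.5 TPM untreated and 15.8 to 17.8 TPM after IR, nearly all of it EPCAM, the haematopoietic ones to 1.68 to 3.47 and 0.879 to 1.40 TPM, with CD3E at 0, the neural ones to 2.60 to 4.24 and 3.89 to 4.54 TPM, with SOX10 at 0, and the endothelial ones to at most 0.434 TPM. Their part in the results was not tested. RNA was taken from the whole culture, so that a change in the mix of cell cycle states and a change per cell cannot be told apart.

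The promoters of the 3 genes that rose, and of DDB1, the partner of DDB2 whose level did not pass the test, are shown so that the p53 half-sites known at DDB2 can be read beside genes that lack a match. The windows run from 250 bases before to 50 bases after the start site in RefSeq (GRCh38.p14). All 10 genes matched an entry, with 12 windows in all, since DDB2 and REV3L have 2 each. Capitals mark the p53 half-site consensus in the DDB2 window and GGGCGG, the GC box bound by Sp1, in the other 3.
DDB2, second window, chr11:47214724-47215023, plus strand: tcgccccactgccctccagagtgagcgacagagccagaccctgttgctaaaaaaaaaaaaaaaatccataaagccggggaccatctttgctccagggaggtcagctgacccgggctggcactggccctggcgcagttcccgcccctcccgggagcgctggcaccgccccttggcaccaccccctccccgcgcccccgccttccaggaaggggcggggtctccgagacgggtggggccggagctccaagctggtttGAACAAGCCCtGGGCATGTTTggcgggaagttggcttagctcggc
XPC, chr3:14178552-14178851, minus strand: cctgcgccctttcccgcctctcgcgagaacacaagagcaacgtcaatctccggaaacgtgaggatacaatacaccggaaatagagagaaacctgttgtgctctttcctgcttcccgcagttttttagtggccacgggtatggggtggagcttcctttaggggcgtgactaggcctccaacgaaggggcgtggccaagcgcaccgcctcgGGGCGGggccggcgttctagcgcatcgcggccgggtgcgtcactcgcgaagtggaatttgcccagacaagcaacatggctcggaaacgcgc
POLH, chr6:43575935-43576234, plus strand: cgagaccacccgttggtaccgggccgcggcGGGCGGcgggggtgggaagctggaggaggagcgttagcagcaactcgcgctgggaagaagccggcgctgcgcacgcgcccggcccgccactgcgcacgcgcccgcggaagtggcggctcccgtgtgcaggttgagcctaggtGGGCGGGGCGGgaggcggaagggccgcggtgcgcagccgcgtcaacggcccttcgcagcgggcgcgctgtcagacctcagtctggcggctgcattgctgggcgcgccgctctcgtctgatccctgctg
DDB1, chr11:61333056-61333355, minus strand: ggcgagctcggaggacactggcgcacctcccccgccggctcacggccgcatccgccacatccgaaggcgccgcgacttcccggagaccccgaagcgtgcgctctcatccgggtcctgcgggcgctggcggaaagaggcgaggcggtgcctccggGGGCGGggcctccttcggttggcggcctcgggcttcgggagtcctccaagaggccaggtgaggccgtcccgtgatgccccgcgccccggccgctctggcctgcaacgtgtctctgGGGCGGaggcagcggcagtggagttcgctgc

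The p53 consensus, a pair of 10-base half-sites separated by 0 to 13 bases, was searched for on both strands with no mismatch, after the expression values had been seen. In the second window of DDB2, GAACAAGCCC stood at 5 to 14 bases after the start and GGGCATGTTT at 16 to 25 bases after it, both inside the first exon. A half-site was found in 6.63% of the 35116 promoters and in 1 of the 12 windows of the listed genes, and a pair in 10 promoters (0.0285%). No half-site matched in the XPC and POLH windows, which says only that these letters were not in these 300 bases. GGGCGG was present in 45.0% of all promoters and in 10 of the 12 windows, CCAAT (the box bound by NF-Y) in 34.6% of promoters and 1 window, TTTGAA (an element of cell cycle genes) in 15.2% and 1, its variant TTTAAA in 12.2% and 1, and TGACTCA (the AP-1 element) in 4.95% and none. The GC box was present for all 3 genes that rose and all 3 that fell.

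IR against untreated was compared for each gene on CPM, the counts brought to the same library total after TMM scaling. DDB2, XPC and POLH rose, POLK, REV1 and REV3L fell, and DDB1, XPA, ERCC5 and POLI did not pass the test. In the same fit 15.5% of all tested genes were called higher and 14.5% lower, at an adjusted p under 0.05, against 3 and 3 of the 10 listed genes (30.1% of tested genes in either direction, against 6 of 10). The median log2 fold change was −0.01 over the 10 genes and 0.01 over all tested genes. The untreated and IR libraries did not overlap for 6 of the 10 genes, which were the 6 called, and for 47.1% of all tested genes (IR higher in 23.8%, IR lower in 23.3%).

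DDB2, the damage-binding subunit of UV-DDB, made the largest change of the 10 genes. Its level was 89.2, 84.6 and 85.8 CPM in the untreated libraries and 144, 158 and 149 CPM after IR. All 3 IR libraries lay far above the untreated ones, and the spread within either group was small beside the gap. The gene rose by 0.80 ± 0.07 on the log2 scale (SE, 95% CI 0.65 to 0.94, adjusted p = 1.58e-04), or 1.74-fold, and ranked 15 by p-value among the 2227 genes called higher. It was called under all 16 alternatives, with log2 fold changes between 0.72 and 1.01.

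XPC, which senses the unpaired bases opposite a lesion, stood at 82.7, 85.4 and 90.1 CPM in untreated cells. After IR it stood at 118, 123 and 116 CPM. The groups were clearly apart, and the rise was 0.46 ± 0.06 on the log2 scale (SE, 95% CI 0.32 to 0.61, adjusted p = 0.00118), or 1.38-fold, with rank 169 among the genes called higher. The 95% intervals of the fold changes of XPC and DDB2 did not meet. The call of XPC was lost in 1 of 16 alternatives, an offset for transcript length, at 0.31 with an adjusted p of 0.0557, and the adjusted p ranged from 4.83e-08 to that value.

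POLH, the polymerase that copies accurately past cyclobutane thymine dimers, was the only translesion polymerase gene of the 5 to be called higher. It measured 60.1, 63.1 and 58.8 CPM in untreated and 69.5, 72.0 and 74.9 CPM in IR libraries. The groups were separate but close, and the rise was 0.25 ± 0.07 on the log2 scale (SE, 95% CI 0.10 to 0.40, adjusted p = 0.0179), or 1.19-fold. With 1 library left out the fold change stayed between 0.21 and 0.28. The adjusted p was 0.0751 without untreated replicate 1, 0.0586 without untreated replicate 3 and 0.0510 without IR replicate 2, and over all alternatives it ranged from 0.00694 to 0.151. Removing each library's GC trend (described below for the genes that fell) raised the change to 0.31, with an adjusted p of 0.00694.

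The other side of the translesion set fell. POLK, which bypasses minor-groove adducts of guanine, went from 25.6, 28.3 and 24.3 CPM to 22.0, 20.7 and 17.8 CPM, a fold change of −0.38 ± 0.10 on the log2 scale (SE, 95% CI −0.60 to −0.16, adjusted p = 0.0183). REV3L went from 58.4, 62.7 and 57.0 CPM to 53.7, 45.2 and 41.5 CPM, a fold change of −0.35 ± 0.10 (SE, 95% CI −0.56 to −0.13, adjusted p = 0.0216). REV1 went from 52.4, 49.7 and 56.0 CPM to 45.7, 43.6 and 40.7 CPM, a fold change of −0.29 ± 0.08 (SE, 95% CI −0.45 to −0.12, adjusted p = 0.0185). For each of the 3 genes every IR library was below every untreated one on CPM, and IR replicate 3, the deepest library, was the lowest. On TPM the groups overlapped for REV3L, at 15.9, 18.3 and 21.8 untreated and 18.7, 17.5 and 15.9 after IR, and stayed separate for POLK and REV1. These are falls of 18.0% to 23.1% in level. In size on the log2 scale, their intervals lay below that of DDB2 (0.65 to 0.94) but overlapped that of XPC (0.32 to 0.61).

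The 3 falls depended on how GC content and transcripts were treated. The GC content of the transcripts was 37.9% for POLK, 38.7% for REV3L and 42.0% for REV1, against 51.4% for XPC and 53.2% for DDB2. Across the 14323 tested genes the median log2 fold change went from −0.19 in the eighth of lowest GC content, which holds POLK, POLI and REV3L, to 0.34 in the eighth of highest. In that lowest eighth 32.7% of genes were called lower and 3.63% higher. With the GC trend of each library removed, the fold changes were −0.18 for POLK (adjusted p = 0.155), −0.16 for REV3L (0.143) and −0.16 for REV1 (0.0790), so that none of the 3 was called, while DDB2, XPC and POLH were called at 0.74, 0.44 and 0.31.

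Single libraries also decided these calls. The adjusted p of POLK was 0.0517 without untreated replicate 1 and 0.0837 without untreated replicate 2. That of REV1 was 0.0621, 0.0701 and 0.0533 without untreated replicate 1, untreated replicate 3 and IR replicate 2. That of REV3L was 0.0583, 0.0864 and 0.0688 without untreated replicate 1, untreated replicate 2 and IR replicate 2. All of these fits gave fold changes below 0. Over all alternatives the adjusted p ranged from 0.00584 to 0.538 for POLK, from 0.00689 to 0.546 for REV1 and from 0.00339 to 0.832 for REV3L.

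DDB1, the adaptor that joins DDB2 to the CUL4 ubiquitin ligase, stood at 345, 340 and 321 CPM untreated and 307, 313 and 341 CPM after IR. The groups overlapped, and the fold change of −0.07 had a 95% CI from −0.22 to 0.08 (adjusted p = 0.471). XPA, the scaffold of the incision complex, stood at 10.6, 8.70 and 13.2 CPM untreated and 13.3, 10.7 and 11.1 CPM after IR, with a fold change of 0.11 and an interval from −0.25 to 0.46 (adjusted p = 0.643). ERCC5, the nuclease that cuts on the 3′ side of the lesion, varied more between libraries than it did between groups, with 27.4, 38.0 and 42.3 CPM untreated against 33.1, 42.2 and 34.8 CPM, a fold change of 0.02 and an interval from −0.30 to 0.35 (adjusted p = 0.918). POLI, a polymerase that prefers to work opposite purines, stood at 14.8, 16.9 and 17.1 CPM untreated and 16.6, 15.1 and 15.4 CPM after IR, with −0.05 and an interval from −0.26 to 0.16 (adjusted p = 0.697). The interval of DDB1 ended at a rise of 0.08, whereas those of XPA and ERCC5 are wide enough to hold a change as large as that of POLH.

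**Figure D1:**
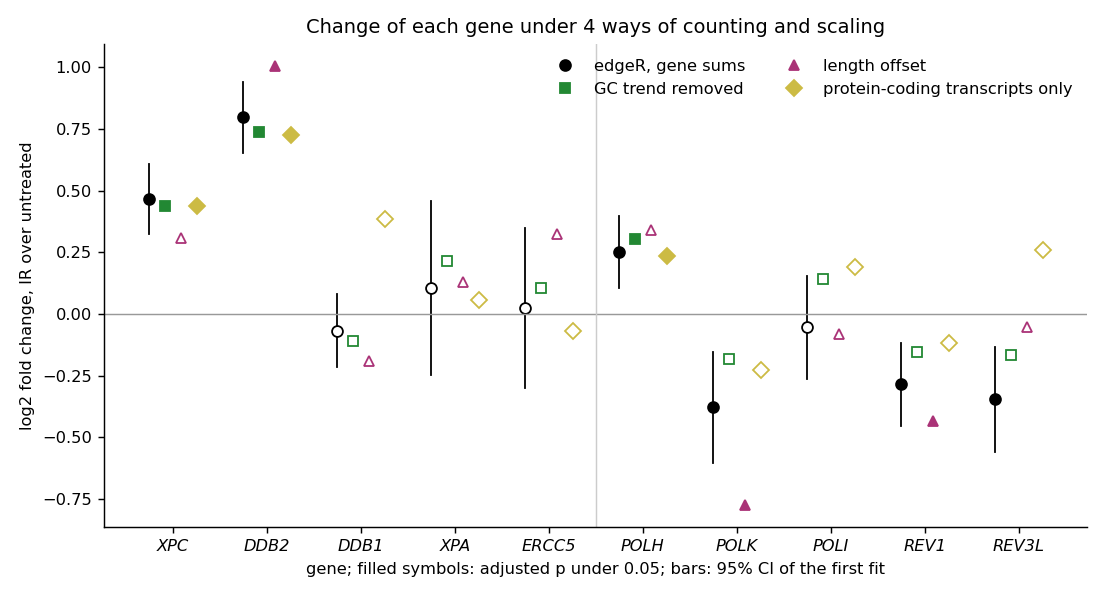
Log2 fold change of IR over untreated for each of the 10 genes under the test on gene sums, with its 95% CI, and under 3 alternatives. Filled symbols passed an adjusted p of 0.05. DDB2 is filled in all 4, XPC and POLH in 3, POLK and REV1 with gene sums and the length offset (POLK −0.77, REV1 −0.43), and REV3L with gene sums alone.

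Levels of different genes were compared per length, on the TPM scale. In untreated cells the order was DDB1 (106 ± 7.76 TPM, SD, n = 3), DDB2 (61.3 ± 2.80), XPC (38.3 ± 1.41), REV1 (32.2 ± 4.33), ERCC5 (24.6 ± 5.71), POLH (24.1 ± 3.15), POLK (20.9 ± 1.60), REV3L (18.7 ± 2.92), XPA (17.1 ± 6.19) and POLI (15.1 ± 1.97). The first 3 were each separate from the next gene in every library. REV1 overlapped ERCC5 and ERCC5 overlapped POLH, and further down POLK overlapped REV3L, REV3L overlapped XPA, and XPA overlapped POLI. The place of POLH leans on POLH-203, a transcript of 331 bases with 1.81% of the POLH counts. It held 5.10, 3.33 and 10.7 TPM untreated and 4.45, 9.69 and 15.3 TPM after IR. After IR, DDB2 moved to the top at 119 ± 16.8 TPM (SD, n = 3), with 107, 112 and 138 TPM in the 3 libraries, above DDB1 at 89.8 ± 13.8 TPM with 87.6, 77.3 and 105 TPM. Of the DDB2 values, 23.6, 28.9 and 43.4 TPM came from DDB2-209, against 0.699, 6.51 and 13.6 TPM untreated. DDB2-209 is a transcript of 660 bases, annotated with a retained intron, that held 8.60% of the DDB2 counts. The place of DDB2 above DDB1 thus leans on this short transcript. On estimated counts DDB2 stayed below DDB1 in every library. POLK moved from rank 7 to the bottom of the order, at 11.8 ± 2.42 TPM.

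Ratios of genes whose products work as partners were taken within each library, which needs no scaling between libraries. DDB2 and DDB1 form the UV-DDB heterodimer, and the ratio of their estimated counts was 0.258, 0.249 and 0.267 untreated and 0.469, 0.506 and 0.437 after IR, a difference of 0.86 on the log2 scale (1.20 on TPM). XPC relative to RAD23B, which stabilizes the XPC protein, went from 0.365, 0.395 and 0.401 to 0.616, 0.684 and 0.644, a log2 difference of 0.74 (0.78 on TPM). RAD23B itself was lower in IR, at 227, 216 and 224 CPM untreated against 191, 180 and 180 CPM. XPC relative to CETN2, the third subunit of the XPC complex, differed by only 0.20 (0.048 on TPM), since CETN2 was also higher, with 57.2, 53.2 and 60.4 CPM against 69.7, 73.9 and 62.1 CPM.

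POLH relative to RAD18, the ligase that ubiquitinates PCNA and recruits polymerase eta, went from 1.68, 1.72 and 1.69 to 2.15, 2.24 and 2.42, a log2 difference of 0.42 (0.86 on TPM). The TPM value includes the short transcript POLH-203, whose part in it was not tested. REV3L relative to MAD2L2, its REV7 partner in polymerase zeta, went from 1.87, 2.10 and 1.86 to 1.77, 1.40 and 0.984. That difference was −0.53 (−0.22 on TPM), and with 1 library left out it lay between −0.72 and −0.30. GC content was 38.7% for REV3L and 60.5% for MAD2L2, and 46.6% for POLH and 38.1% for RAD18. The part of the GC trend in these ratios was not tested. MAD2L2 was at 31.2, 29.8 and 30.6 CPM untreated and 30.3, 32.2 and 42.2 CPM after IR, so that its highest value was in the same library as the lowest REV3L. On estimated counts the groups did not overlap for any of the 5 ratios, whereas on TPM they overlapped for XPC/CETN2, REV3L/MAD2L2 and POLH/RAD18. The first gene of each pair was already separate on its own CPM, as 47.1% of all tested genes were. Separation of the ratios is therefore no further evidence, and the share over other pairs of genes was not computed. Each ratio of counts had p = 0.1 in a two-sided exact permutation test, the smallest p that 3 libraries against 3 can give.

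**Figure D2:**
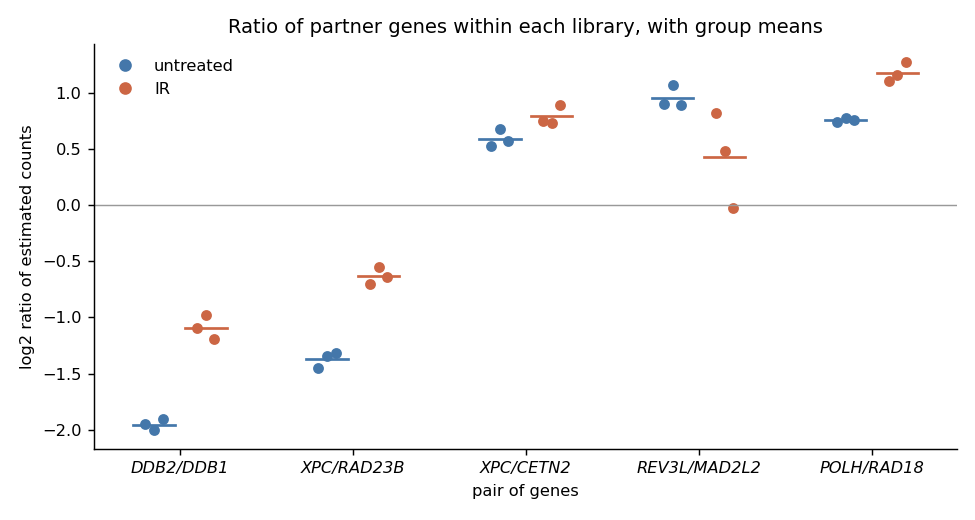
Log2 ratio of estimated counts for 5 pairs of partner genes in each library (points), with group means (bars). The IR libraries sit above the untreated ones for DDB2/DDB1, XPC/RAD23B, XPC/CETN2 and POLH/RAD18 and below them for REV3L/MAD2L2, where IR values run from 1.77 to 0.984 as plain ratios.

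The wider pathway was read from 74 genes in 7 lists by role, all of which were tested. In these lists 7 genes (9.46%) were called higher and 19 (25.7%) lower, against 15.5% and 14.5% of all tested genes, with a median log2 fold change of −0.12, and without the 10 listed genes 4 of 64 were higher and 16 lower. With the GC trend of each library removed, 8 of the 74 genes were called higher and 14 lower. In that fit 1669 of all tested genes were called higher and 1804 lower. Of the 9 genes of global genome recognition, 3 rose (DDB2, XPC and CETN2, 0.26) and 2 fell, RAD23B at −0.28 and CUL4B, a scaffold of the DDB1 ligase, at −0.24. Of the 9 genes of transcription-coupled recognition, which starts at a stalled RNA polymerase, none rose and 2 fell, the deubiquitinase gene USP7 (−0.29) and the elongation factor gene TCEA1 (−0.23). Of the 10 TFIIH genes, 2 rose, the helicase gene ERCC2 (XPD) at 0.45 and GTF2H4 at 0.26, and none fell. With the GC trend removed, 4 of the 10 were called higher. ERCC2 was called with any library left out, whereas GTF2H4 was called in none of those 6 fits and its adjusted p ran from 0.0523 to 0.0806. None of the 7 genes of damage verification and incision passed the test.

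Several of these pathway calls rested on single libraries. CETN2 had an adjusted p of 0.0999 without untreated replicate 1, 0.144 without untreated replicate 2, 0.0893 without IR replicate 1 and 0.138 without IR replicate 2. CUL4B had 0.0583 without untreated replicate 2, and USP7 had 0.0539 without untreated replicate 2 and 0.0586 without untreated replicate 3. TCEA1 had 0.0911, 0.0934 and 0.0722 without untreated replicate 1, untreated replicate 3 and IR replicate 2. With the GC trend removed, CUL4B (−0.033), TCEA1 (−0.056), GTF2H4 (0.12) and POLD4 (0.21) were not called, and RAD23B, USP7 and ERCC2 were.

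Of the 17 genes of gap filling and ligation, 1 rose, POLD4 at 0.52, and 5 fell, among them the clamp loader gene RFC1 (−0.36), POLD3 (−0.44) and LIG3 (−0.34). POLD4 stood at 12.9, 12.0 and 12.7 CPM untreated and 13.6, 16.0 and 23.6 CPM after IR, and its call held only without IR replicate 1 among the 6 fits with a library left out, the adjusted p of the others running from 0.0558 to 0.145. Of the 9 genes of the translesion polymerase list, POLH rose and 4 fell, with POLQ, the polymerase of microhomology-mediated end joining, lowest at −0.63 (90.0, 92.7 and 94.1 CPM to 66.6, 60.9 and 51.6 CPM, adjusted p = 0.00130). POLQ was at −0.51 with the GC trend removed and lost its call in 1 of 15 alternatives, the length offset, at −0.33 with an adjusted p of 0.278, the highest of the 15 (the lowest was 5.31e-09). The list of 13 genes for the PCNA ubiquitin switch, which calls these polymerases to stalled forks, had none called higher and 6 lower (46.2%, against 14.5% of all tested genes). SHPRH, ATAD5 and USP1 have a GC content of 39.6%, 37.3% and 37.6% and so lie in the eighth of lowest GC content, where 32.7% of all genes were called lower. SHPRH, a ligase for PCNA, fell from 43.8, 48.2 and 45.2 CPM to 26.5, 27.8 and 25.4 CPM (−0.79, adjusted p = 2.53e-04), ATAD5, which unloads PCNA, by 0.71, and USP1, which removes ubiquitin from PCNA, by 0.53. SHPRH, ATAD5 and USP1 stayed called under all 15 alternatives run for them, and the list kept at least 4 genes called lower in each. RAD18, at −0.17 (adjusted p = 0.0833), did not pass.

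**Figure D3:**
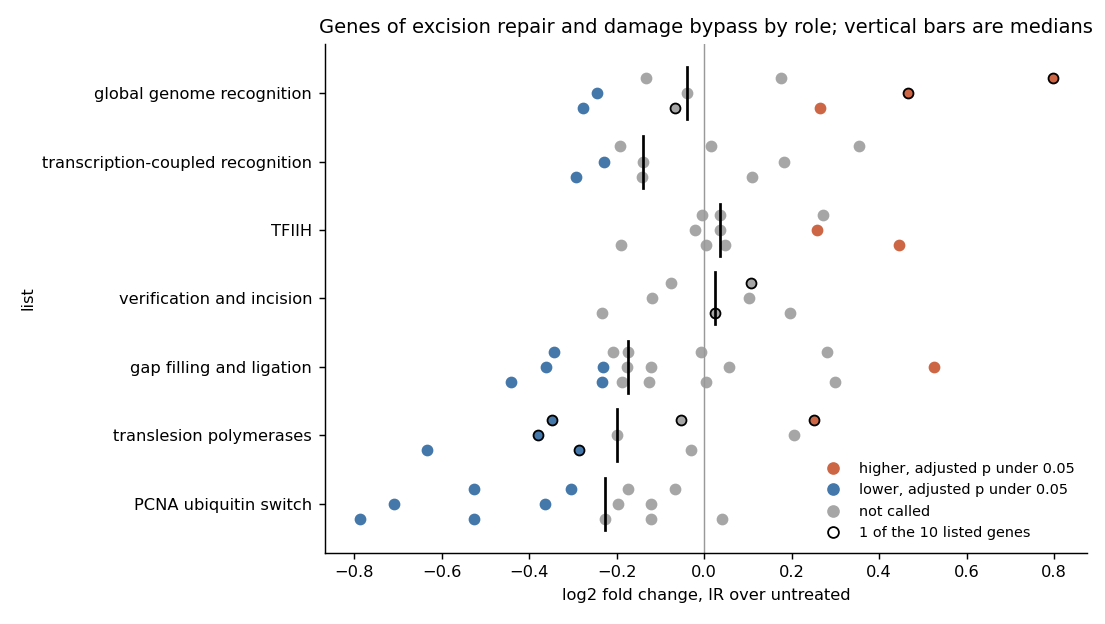
Log2 fold change of IR over untreated for the 74 genes of the 7 lists, with black bars at the median of each list and dark rims on the 10 listed genes. The medians run from −0.23 for the PCNA ubiquitin switch to 0.04 for TFIIH, and the points farthest to the right are DDB2 (0.80), POLD4 (0.52) and XPC (0.46).

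Transcript estimates within the genes were compared next. XPC was almost a single-transcript gene, with XPC-201 (the MANE reference transcript) holding 95.2% of its counts, and DDB2-201 held 74.0% of the counts of DDB2. DDB2-201 went from 73.0, 61.8 and 64.7 CPM to 109, 121 and 111 CPM, higher in each IR library than in any untreated one. DDB2-209, a short transcript annotated with a retained intron, went from 0.332, 3.17 and 6.39 CPM to 11.6, 15.2 and 19.0 CPM. POLH counts were shared by the reference POLH-202 (49.6%) and POLH-201 (48.6%), both annotated as protein coding. With transcripts of the protein coding type alone, DDB2, XPC and POLH were called higher at 0.72, 0.44 and 0.23.

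REV3L behaved differently. REV3L-205, annotated as a target of nonsense-mediated decay (NMD), held 74.7% of the REV3L counts, and the reference transcript REV3L-202 held 4.47%. The 2 transcripts differ by an exon of 128 bases (chr6:111472013-111472140) and an exon of 107 bases (chr6:111460300-111460406), both present in REV3L-205 alone, and by 299 bases of leader present in REV3L-202 alone. The start of the 128-base exon carries a stop codon, shown in capitals at the end of the run below, which begins with 24 bases of the exon before it on the minus strand.
REV3L-205, chr6:111472136-111472140 and the 24 bases before: gagtcttcggagcgaccccggcagaaTAA
REV3L-205 went from 52.0, 56.4 and 41.9 CPM to 41.3, 32.3 and 24.9 CPM. The share of NMD transcripts in REV3L was 92.6%, 94.8% and 83.2% untreated and 81.5%, 78.9% and 62.3% after IR, with no overlap between the groups (exact permutation p = 0.1). In POLK that share was 43.6%, 64.0% and 56.7% untreated and 46.2%, 49.0% and 57.6% after IR, so that the groups overlapped. In POLI it lay between 22.1% and 38.8% over all libraries. Counted on protein coding transcripts alone, REV3L had a fold change of 0.26 (adjusted p = 0.761) in place of −0.35, POLK −0.23 (0.538) and REV1 −0.12 (0.546). REV3L-208, for which no reading frame is defined, went the other way, from 1.66, 0.938 and 2.64 CPM to 5.72, 7.48 and 8.12 CPM, and the test of transcript usage did not call REV3L.

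DDB1 had a steady sum but not a steady make-up. The reference transcript DDB1-201 went from 223, 168 and 215 CPM to 252, 232 and 322 CPM. DDB1-232, annotated for NMD, went from 82.9, 111 and 0 CPM to 8.26, 2.09 and 0.442 CPM, with 1 untreated library at 0. DDB1-232 has an exon of 117 bases that DDB1-201 lacks. Of the 87 stretches of 31 bases in that exon, 38 (43.7%) also occur in transcripts of other genes. Their part in the DDB1-232 values was not tested. Protein coding transcripts made up 70.4%, 52.0% and 81.6% of DDB1 counts untreated and 91.1%, 94.3% and 95.6% after IR, with no overlap (exact permutation p = 0.1). Other shares of the listed genes were also separate between the groups. Among them were the protein coding and retained intron shares of POLI, the NMD share of ERCC5 and the share without a defined reading frame in REV1. How often such shares separate over all genes was not computed. On protein coding transcripts alone DDB1 was at 0.38 (adjusted p = 0.0883), and the test of transcript usage did not call it (adjusted p = 0.419).

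Transcript usage, that is, a change of 1 transcript relative to the rest of its gene, was called for 2.67% of 10666 genes and for 2 of the 10 listed ones, ERCC5 (adjusted p = 0.0115) and REV1 (adjusted p = 0.0289). On simulated counts at the dispersion of these libraries, this test recovered 4.59% of 200 changed genes and called 63 unchanged ones. In ERCC5 the call came from ERCC5-211, annotated for NMD, at 0.774, 3.66 and 6.20 CPM untreated and 0 CPM in all 3 IR libraries. This transcript leaves out 113 coding bases (chr13:102872198-102872310, plus strand) of the reference ERCC5-212. They are shown in capitals with 10 bases on either side, because their loss shifts the reading frame.
ERCC5-212, around chr13:102872198-102872310: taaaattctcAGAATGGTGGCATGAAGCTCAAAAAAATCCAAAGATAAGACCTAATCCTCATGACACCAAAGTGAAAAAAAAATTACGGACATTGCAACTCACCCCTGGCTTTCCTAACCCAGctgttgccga
ERCC5-211 also lacks 176 bases near the 5′ end and 104 bases at the 3′ end of the reference. All 83 stretches of 31 bases in the 113-base block also occur in transcripts of other genes. So do 73 of 74 in the 104-base block and 0 of 146 in the 176-base block. Their part in the ERCC5-211 values was not tested. ERCC5-211 held 4.25% of the ERCC5 counts, while ERCC5-208 held 28.6% and the reference 25.1%. The call was lost without IR replicate 1, 2 or 3 (adjusted p = 0.0827, 0.0923 and 0.154). ERCC5 also shares 3641 exon bases on the same strand with the read-through gene BIVM-ERCC5, which had 169, 10 and 5 counts untreated and 222, 13 and 16 after IR, so that the split between them is uncertain. With both summed, the fold change was 0.04 (adjusted p = 0.771).

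In REV1 the usage call came from the reference transcript REV1-201, at 0.774, 0.0894 and 0 CPM untreated and 3.96, 4.56 and 13.4 CPM after IR. REV1-202, which held 51.9% of the counts, went from 27.9, 26.3 and 37.0 CPM to 25.4, 23.6 and 16.9 CPM. The transcripts differ by a 3-base piece of coding exon (chr2:99429946-99429948), 44 bases of leader and 2 bases at the 3′ end. The call held in 1 of 6 fits with a library left out. It was lost without untreated replicate 2 (adjusted p = 0.289), untreated replicate 3 (0.180), IR replicate 1 (0.0681), IR replicate 2 (0.105) and IR replicate 3 (0.265).

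**Figure D4:**
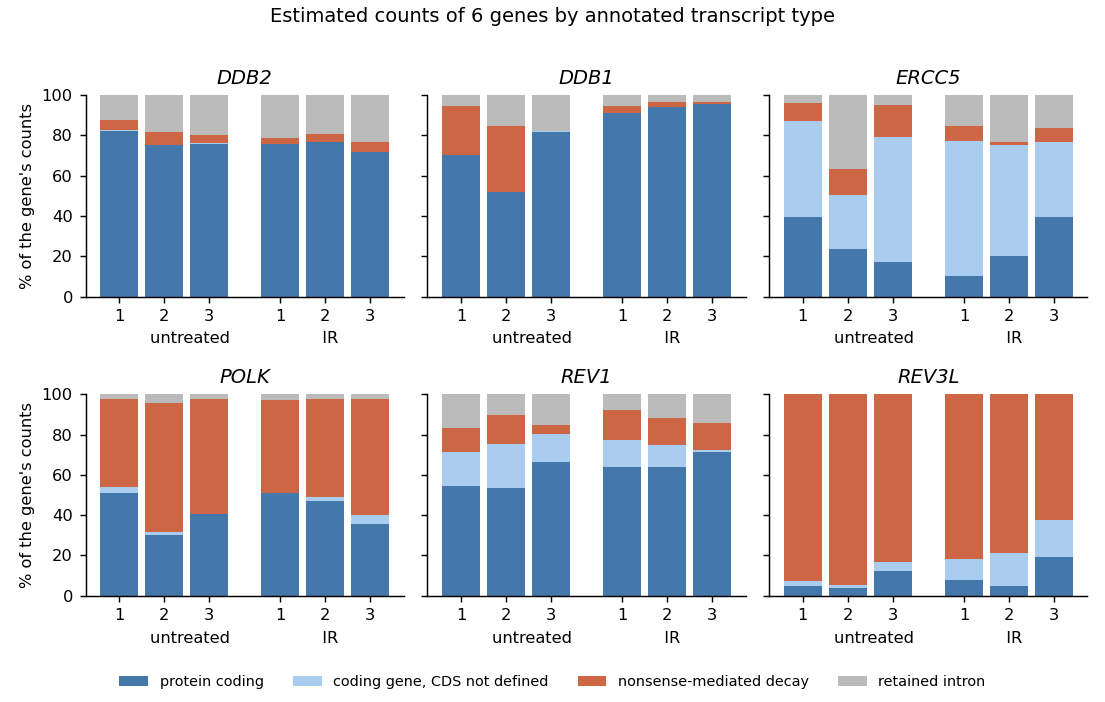
Share of each gene's estimated counts by annotated transcript type, for 6 genes, with 1 bar per library. NMD transcripts (orange) fill most of REV3L, from 94.8% in an untreated library down to 62.3% in an IR library, and are seen in DDB1 at 23.9% and 32.8% in untreated libraries 1 and 2 but at 0.351% in the third. They also make up 43.6% to 64.0% of POLK in untreated and 46.2% to 57.6% in IR libraries.

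Other genes overlap the listed ones on the opposite strand, and the strand setting of the counting is not given in the sources used here. The shared exon bases were 852 for REV1 with EIF5B, 493 for DDB1 with TKFC, 261 for POLH with GTPBP2, and 144 for POLK with CERT1. XPC shares 413 with an unnamed protein coding gene, which had at most 8 counts in a library. Long noncoding RNA genes share 1140 with XPC (XPC-AS1), 754 with POLK, 576 and 117 with REV3L, and 512 with POLI. These noncoding genes were not among the counted genes, and their part in the values was not tested. EIF5B is far more abundant than REV1, at 132, 132 and 138 TPM untreated and 130, 122 and 98.9 TPM after IR, and its part in the REV1 values was not tested.

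The genes closest in pattern to the strongest riser and faller were found by Pearson r over the 6 libraries on log2(CPM + 1), among 10135 genes with a mean of at least 10 CPM. For DDB2 these were ACADVL and PYGL (r = 0.999 each) and P2RX4 (r = 0.998), which were higher in IR by 0.36, 0.29 and 0.45. For POLK they were TENM2 (r = 0.999), LCLAT1 (r = 0.998) and PTPN4 (r = 0.996), at −0.38, −0.30 and −0.33. With 6 libraries in 2 groups these values mostly describe a shared step between the groups.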

How the data were processed

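RNA was extracted from 3 untreated and 3 IR libraries of U-2 OS cells and sequenced on an Illumina instrument. The labels name polyA RNA, whereas the paper names a total RNA kit. The authors removed adaptors with fastp and ran kallisto (version not given in the sources used here) against GENCODE release 37 of GRCh38. The deposited files hold, per transcript and library, an estimated count with no normalization, a TPM value that the authors scaled for effective length and library total, and the length and effective length in bases.

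Of the 161171 transcripts, 158711 were found by identifier in GENCODE release 44. The 2460 others, with 1.54% to 1.80% of a library's counts, were dropped. Gene sums of the deposited estimated counts were rounded, passed through filterByExpr, normalized by TMM and fitted by the quasi-likelihood functions of edgeR (glmQLFit, glmQLFTest, edgeR 4.0.16, limma 3.58.1, R 4.3.3), with Benjamini–Hochberg adjustment over 14323 genes and a threshold of 0.05. CPM are TMM-scaled. SEs are the fold change over the square root of F. Confidence intervals are at 95%. Transcript usage was tested by diffSpliceDGE with Simes p-values. Effective length exceeded length for 28.2% of transcripts in untreated replicate 1, so that the length offset may also carry a bias correction by kallisto. Depth was 18573309 to 45308792 counts, with the smallest counting error in IR replicate 3.

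The 10 genes, the pathway lists and the tests were chosen with earlier results of these data known. All 10 genes are described. Of each list, up to 3 genes called higher and 3 called lower with the lowest p are named, with the partner genes of the ratios, CDKN1A, and the 3 genes closest in pattern to DDB2 and POLK.

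On simulated counts with 200 of 14323 genes changed, the gene test found 82% of the genes with a log2 change of 1, 61% of the genes with a log2 change of 0.5, and 17 genes that had no change. With a linear GC trend of set slope added to the simulated IR counts, it called 3924 unchanged genes, and 11 once that trend was removed. The slope was not fitted to these data and was the same in every simulated IR library. These counts therefore give no rate of false calls for the real trend. When the second transcript of 200 genes was raised 4-fold, the usage test recovered 4.59% of them at the dispersion of these libraries and 99.0% at a dispersion of 0.01, so that most changes in usage of that size would be missed. It also called 63 unchanged genes at the dispersion of these libraries and 10 at a dispersion of 0.01, so that a single usage call is weak evidence. Alternatives were the filter, DESeq2 (1.42.0) size factors and Wald test, the likelihood ratio test, a replicate block, GC and length offsets, and leaving out each library. Replicates of a group differed by more than sampling noise, with a chi-square per gene of 3.45 to 9.16 between libraries other than IR replicate 3, and 29.1 and 32.2 for the pairs with IR replicate 3, the deepest library. Some items are not reported here.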

Additional observations from a re-analysis of the deposited data

How the results depend on the processing

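DDB2 was the only one of the 10 genes called under all 16 alternatives. The GC offset, the protein-coding count (an alternative chosen after seeing the data) and single libraries ended calls of the genes that fell. Each replicate number is shared by both groups, and the labels do not say whether same-numbered libraries were paired. The deviations of same-numbered libraries correlated at −0.0225, 0.0217 and −0.0488, and those of the other pairs at −0.0539 to 0.0649. These values show no sign of pairing, but they cannot exclude it. A fit with the replicate block left 1727 genes called higher and 1624 lower, 4 pathway genes called higher, 1 listed gene called for usage, and POLH at an adjusted p of 0.0514.

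Genes called higher numbered 1473 with the block and the GC trend removed, 837 with the length offset, 1277 with protein-coding transcripts only, and 1295 to 2114 with 1 library left out, against 2227. Genes called lower numbered 875 with the length offset and 1244 to 2284 with 1 library left out, against 2080. Listed genes called higher numbered 1 with the length offset. Listed genes called lower numbered 0 with the GC trend removed, with or without the block, 0 with protein-coding transcripts only, and 0 to 3 with 1 library left out, with 0 without untreated replicate 1 and 1 without untreated replicate 2 or IR replicate 2. Pathway genes called higher numbered 2 with the length offset, 4 with protein-coding transcripts only, and 3 to 5 with 1 library left out, and those called lower 11 with the block and GC and 9 with the length offset. Listed genes called for transcript usage numbered 0 to 2 with 1 library left out.

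On TPM the log2 ratios moved to 1.20 for DDB2/DDB1, 0.048 for XPC/CETN2, 0.86 for POLH/RAD18 and −0.22 for REV3L/MAD2L2. Signs turned, with no call on either side, for XPA (from −0.034 without untreated replicate 2 to 0.28 over the fits with 1 library left out), ERCC5 (from −0.13 without untreated replicate 1 to 0.16 over those fits, −0.070 with protein-coding transcripts), POLI (0.14 with GC removed and with the block added, 0.19 with protein-coding transcripts), MAD2L2 (−0.057 and −0.067) and RAD18 (0.025 and 0.027) with GC removed without and with the block, and DDB1 (0.38) with protein-coding transcripts. REV3L, called lower on gene sums, turned to 0.26 with protein-coding transcripts. The cause of these shifts was not tested. XPA had the fewest counts of the 10 genes, 1629 over the 6 libraries.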
